A study of Mus musculus with 4 samples.

Results

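The cells described here are the Paneth cells of control small intestinal crypts, chosen by 1 measured value in the 2 control (Slc7a5 fl/fl) libraries: genes with symbols starting with Defa held at least 30% of the cell's unique molecular identifiers (UMIs, 1 for every transcript captured). This share is called Defa% below. It was met by 2020 of 3633 cells in replicate 1 (55.6%) and by 1950 of 3217 cells in replicate 2 (60.6%), which makes 3970 of the 6850 fl/fl cells and of the 26498 cells in the series. Live epithelial cells (EpCAM positive, CD45 negative) had been sorted from crypts of mice aged 8 weeks and sequenced with a 10x Genomics 3′ kit. In the Slc7a5 fl/fl mice, exon 1 of Slc7a5, which codes for the amino acid transporter LAT1, is flanked by loxP sites and not deleted, and mice of the libraries labelled Slc7a5 IEC-KO carried the same floxed alleles with a Cre recombinase driven by the villin promoter, which is active in the intestinal epithelium. The protocol names 4 mice without saying how they were divided among the 4 libraries (n = 2 per genotype), so the spread between libraries may be technical. Pairs of values below are for replicate 1 and then replicate 2.

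Paneth cells sit at the base of small intestinal crypts between the stem cells. They fill large granules with antimicrobial proteins, of which the alpha-defensins, made from a cluster of closely related genes, are the most abundant, and release them into the crypt lumen together with lysozyme, phospholipases and lectins. They also present Wnt3, epidermal growth factor and Notch ligands to the neighbouring stem cells.

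The Defa% of the fl/fl cells fell into a low and a high group with few cells between. The members had a median Defa% of 41.1% and 43.9%, with the central 90% of cells between 34.6% and 45.3% and between 35.9% and 48.6%. The 2671 cells under 20% (1493 and 1178) had medians of 4.37% and 4.83%, and only 209 cells (120 and 89) lay from 20% to 30%. The cells under 20% were never without these transcripts, the lowest holding 3.00% and 3.50%. The part of free RNA in these UMIs was not tested. The 2 fl/fl libraries shared 14 cell barcodes.

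**Figure D1:**
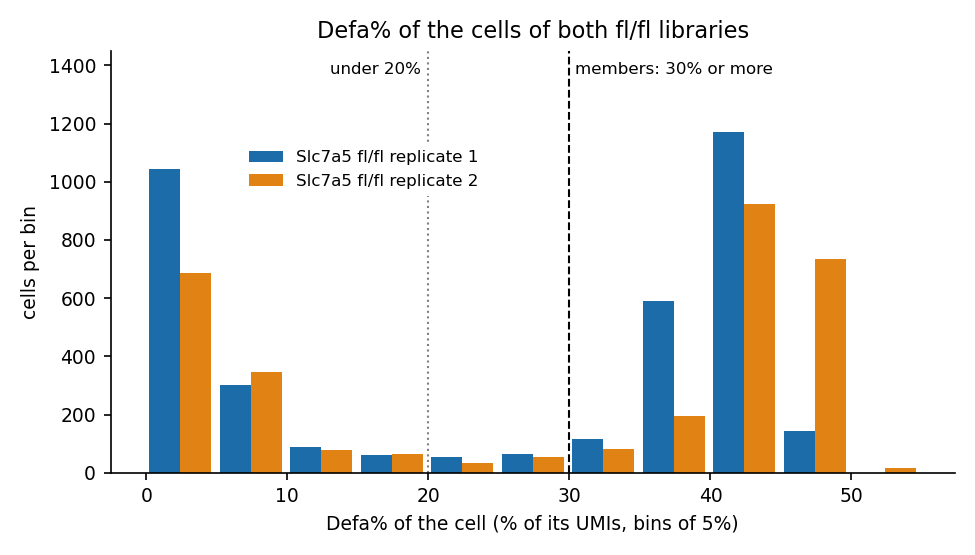
Number of cells (y axis) per bin of Defa% (x axis, percent of the cell's UMIs, bins of 5%) for both fl/fl libraries, with the limits of 20% and 30% as vertical lines. The bins between 20% and 30% hold 209 cells, against 3970 at or above 30%.

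Members carried far more UMIs than the other cells. Their median was 46965 and 52851.5 UMIs per cell, against 10598 and 11502 in the cells under 20%. The lowest total in each library, 8909 and 9670 UMIs, was a lower limit at which cells under 20% crowded: 60.7% and 60.3% of them had a total at most 25% above that value, against 2.43% and 1.33% of members. Shares of cells therefore apply to cells above these limits. At 10000 UMIs or more, the members were 65.4% and 63.2% of cells. At an equal depth of 8000 UMIs per cell, a member showed a median of 857 and 814.5 genes, and a cell under 20% showed 2045 and 2042.5. With 3000 UMIs per cell outside all alpha-defensins, a setting added after the values were seen, the medians were 967 and 971 genes in members and 1137 and 1138 in the cells under 20%. Without thinning, members showed 2731 and 2833.5 genes and the cells under 20% showed 2423 and 2552. Mitochondrially encoded genes took a median of 0.793% and 0.759% of a member's UMIs and 2.41% and 2.39% in the cells under 20%. Of the summed UMIs outside all alpha-defensins, they took 2.70% and 2.77% in members and 3.17% and 3.21% in the cells under 20%.

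What chose the members was only part of their alpha-defensin output. The 13 Defa genes took 41.2% and 44.0% of all UMIs of the members, and 16 further alpha-defensin genes that the count table lists under other names took another 27.5% and 27.0%. All 29 together made up 68.7% and 70.9% of the members' UMIs, and 8.91% and 9.72% in the cells under 20%. They lie in a single cluster on chromosome 8 (chr8:20943694-21735471, GRCm38, GENCODE M21). The 10 leading genes of the members held 65.9% and 68.6% of their UMIs, against 20.4% and 20.5% for the 10 leading genes of the cells under 20%.

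Defa24 (ENSMUSG00000064213, chr8:21734494-21735471, plus strand) alone took 22.9% and 23.2% of the members' UMIs and was the leading alpha-defensin gene in 100% of them. Gm15284, now named Defa30, followed with 9.88% and 10.4%. AY761184 took 5.47% and 5.44%, and Gm14851 (now Defa38) took 5.23% and 5.17%. These values were close between the libraries, whereas Gm21002 (now Defa33) was not, with 2.32% and 1.07%. Defa20 took 4.20% and 5.37%, and Defa21 4.34% and 4.68%. Defa22 stood at 4.26% and 4.64%. At the other end, Defa2 had 6 and 4 UMIs and AY761185 had 25 and 8 over all members. The last 150 bases of many of these transcripts, the stretch a 3′ kit reads, are nearly identical, so the division of UMIs among such copies is uncertain. Defa24 and Gm15284 share 96.7%, Defa20 and Gm15308 share 99.3%, and Defa2 and Gm21002 share 99.3%. A swap within the family leaves the sum unchanged, but the loss of reads that fit more than 1 copy was not tested. Defa% rests on the names of the genes in the same way: with all 29 alpha-defensins counted in it, 58.9% and 63.0% of cells were at or over 30%.

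**Figure D2:**
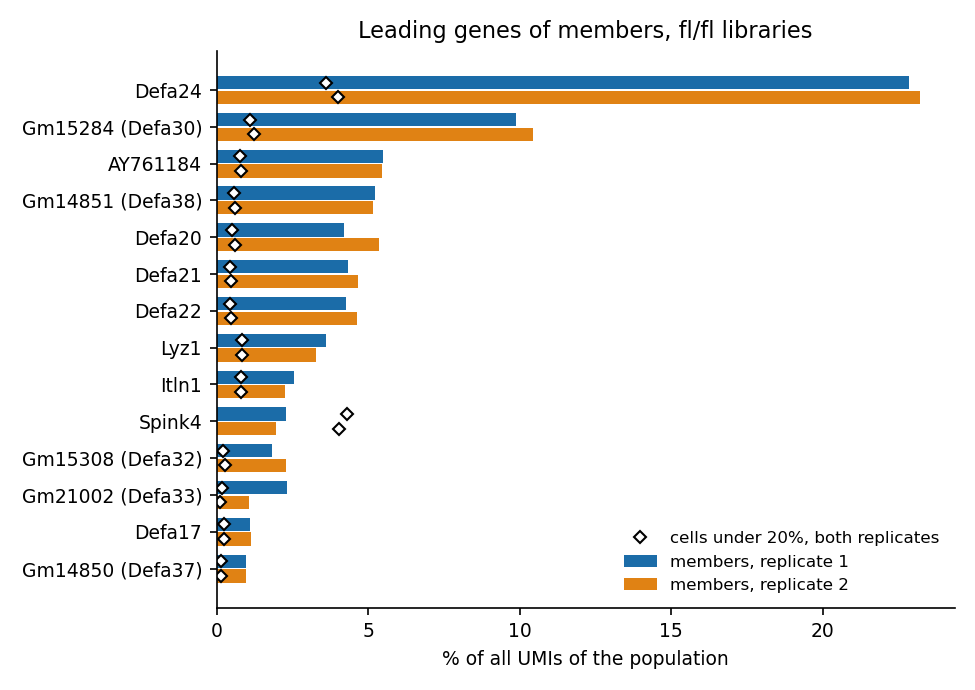
Percent of all UMIs (x axis) taken by 14 of the genes with the largest share in members, as bars for the members of each fl/fl library and open diamonds for the cells under 20% of the same library. Defa24 leads with 22.9% and 23.2%, and all genes shown but Lyz1, Itln1 and Spink4 are alpha-defensins.

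After the alpha-defensins came the other proteins of the Paneth cell granule. Lyz1, the Paneth cell lysozyme (ENSMUSG00000069515, chr10:117287797-117292868, minus strand), took 3.60% and 3.29% of all UMIs of the members. Itln1, a lectin that binds microbial sugars, took 2.55% and 2.26%. Spink4, a secreted protein also made by goblet cells, took 2.28% and 1.96%. Each of these 3 thus took more UMIs than many of the alpha-defensins. Tff3, the trefoil factor of goblet cells, took 0.959% and 0.904%. Mptx2, a pentraxin, reached 0.727% and 0.631%, and Ang4, an antimicrobial ribonuclease, 0.646% and 0.610%. Clps, the cofactor of pancreatic lipase, reached 0.424% and 0.405%, and Mmp7, the protease that activates alpha-defensins in the mouse, 0.152% and 0.136%. Ribosomal protein genes as a group took 4.01% and 3.89%.

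Because the alpha-defensins leave so little room, the remaining genes were compared as shares of the UMIs outside the alpha-defensin genes. The contrast with cells under 20% is the contrast that chose the members, so its values are a description with no test. Lyz1 stood at 11.5% and 11.3% of these UMIs in members, 12.5 and 12.2 times its share in the cells under 20%. Of the fixed Paneth markers, Ang4 was at 15.2 and 15.3 times, Mptx2 at 15.1 and 14.6 times and Mmp7 at 3.59 and 3.71 times. All 4 markers of the label were therefore higher in the members of both libraries, together 16.4% and 16.0% of the UMIs outside the alpha-defensins against 1.34% and 1.34%. Lyz2, the lysozyme of macrophages, had the highest ratio among genes with at least 100 UMIs, 17.0 and 17.7 times, at a level far under that of Lyz1 (3469 and 2973 UMIs over all members). Its reads and those of its close relative Lyz1 may not be fully separable.

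The granule and secreted protein list of 25 genes had 21 genes with at least 100 UMIs, of which 16 were above 1 in both libraries and 5 below. Its median ratio was 3.59 and 3.71, beside 0.768 and 0.765 over all 8585 genes outside the alpha-defensins with that many UMIs. Of those 8585 genes, 17.7% were above 1 in both libraries and 74.5% below, and the counts for this and the following lists are to be read against these shares. Clps was at 12.7 and 12.1 times and Pnliprp2, a lipase, at 11.6 and 11.3 times. Itln1 stood at 9.09 and 8.80 times, Habp2, a secreted protease, at 6.11 and 6.46 times, and Nupr1, a stress-responsive nuclear protein, at 4.92 and 5.01 times. Reg4, a secreted lectin, was at 4.16 and 4.46 times. Members of one family went apart in this list: Guca2b, the precursor of uroguanylin, was at 3.27 and 3.46 times, while Guca2a, the precursor of guanylin, was at 0.779 and 0.825 times. Likewise Reg3g, a lectin that kills Gram-positive bacteria, was at 1.28 and 1.23 times and the related Reg3b at 0.430 and 0.433 times.

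**Figure D3:**
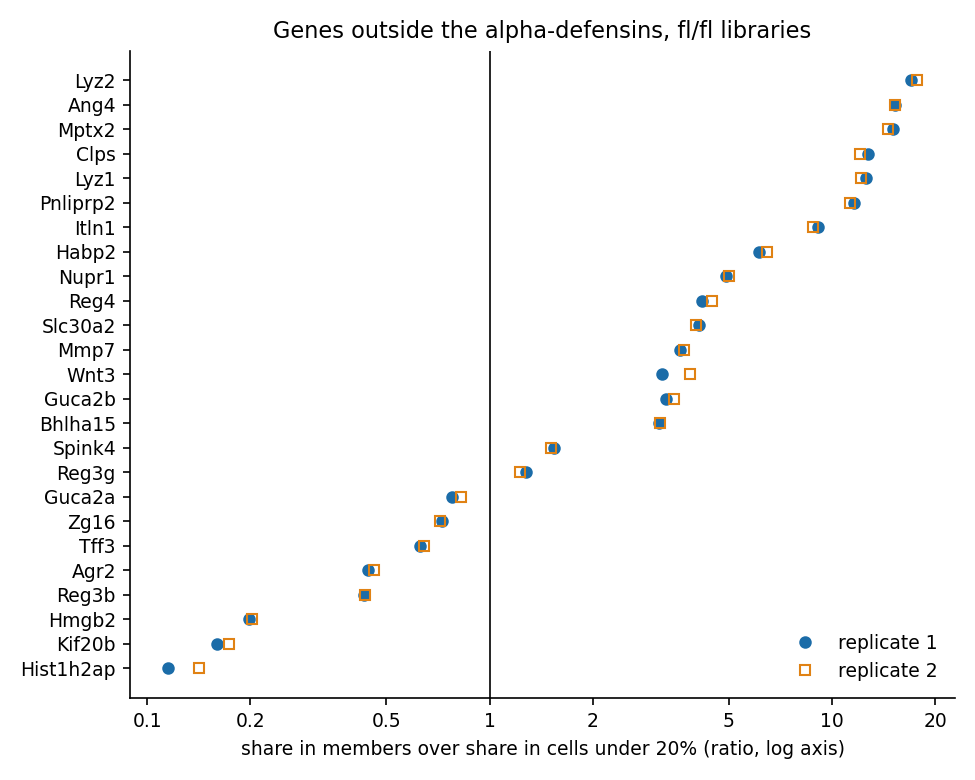
Ratio (x axis, log scale) of a gene's share of the UMIs outside the alpha-defensins in members to its share in fl/fl cells under 20%, with 1 filled circle for replicate 1 and 1 open square for replicate 2 per gene. Granule genes such as Ang4 (15.2 and 15.3) lie right of 1, and the cell cycle genes Hmgb2, Kif20b and Hist1h2ap lie left of it.

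Genes of the signals that Paneth cells give to stem cells differed from each other. Wnt3 was at 3.18 and 3.84 times its share in the cells under 20%, with a UMI in 54.6% and 57.3% of members against 15.8% and 14.8% of the other cells at their lower depth. Egf was at 2.29 and 2.42 times. Of the Notch ligands, Dll4 was close to 1 (0.966 and 0.937) and Dll1 was at 0.438 and 0.465 times. Wnt9b had 4 and 3 UMIs in all members, and Wnt11 had none. Over the list of 8 such genes, 5 had at least 100 UMIs, of which 2 were above 1 in both libraries and 2 below, too few to set against the 17.7% and 74.5% of all genes.

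Genes of the machinery of secretion lay on both sides of 1. Of 40 genes of the endoplasmic reticulum and its stress response, 14 (35%) were above 1 in both libraries and 24 (60%) below, against 17.7% and 74.5% of all genes, with a median ratio of 0.869 and 0.889, and their sum was 1.15% and 1.14% of the UMIs outside the alpha-defensins against 1.36% and 1.31%. The highest was Ero1lb, an oxidase that helps form disulphide bonds, at 3.38 and 2.89 times, followed by Derl3, of the pathway that removes misfolded proteins, at 2.14 and 2.79 times. The chaperones Hspa5 (0.775 and 0.838 times) and Hsp90b1 (0.465 and 0.478 times) were lower. Among 12 transcription factors of the secretory lineage 3 (25%) were above 1 and 9 (75%) below, near the shares over all genes. Bhlha15, a factor of professional secretory cells, was at 3.13 and 3.15 times, Sox9, which Paneth cells need to form, at 1.24 and 1.29 times, and Foxa3 at 1.23 and 1.23 times. Atoh1, the factor that commits cells to the secretory lineage, stood at 0.693 and 0.705 times and Xbp1, a factor of the unfolded protein response, at 0.748 and 0.773 times. Of 8 zinc genes, Slc30a2, a zinc exporter of granules, was alone above 1, at 4.08 and 4.01 times, and Mt1, a metallothionein, stood at 0.741 and 0.661 times.

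UMIs of markers of other epithelial cells were also counted in the members, and the part of free RNA in them was not tested. The 13 goblet markers summed to 14.3% and 13.8% of the UMIs outside the alpha-defensins, near the 15.4% and 15.03% of the cells under 20%, with Spink4 as the most abundant. Spink4 itself was at 1.54 and 1.51 times, Muc2, the gel-forming mucin, at 0.875 and 0.902 times, Tff3 at 0.625 and 0.643 times and Agr2, a disulphide isomerase needed for mucin, at 0.440 and 0.460 times. The 14 enterocyte markers summed to 0.470% and 0.482% (Apoa1 the most abundant), against 0.601% and 0.659%. All 15 cell cycle genes had ratios below 1 in both libraries, as were 74.5% of all genes, with medians of 0.434 and 0.414 against 0.768 and 0.765 over all genes, among them Hmgb2 at 0.199 and 0.203 times, Top2a at 0.324 and 0.308 times and Mki67 at 0.479 and 0.462 times. The 10 stem cell markers, of which 9 could be compared, had a median ratio of 1.02 and 1.05 and summed to 0.0201% and 0.0212%. Ribosomal protein genes were at 12.8% and 13.4%, against 21.2% and 21.4%, with 80 of 82 genes below 1 in both libraries (97.6%, against 74.5% of all genes).

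The 10 enteroendocrine markers summed to 0.230% and 0.251% in members against 0.107% and 0.101%, led by Gip, the gene of an incretin hormone, at 0.127% and 0.148% (4.13 and 5.10 times). With cells thinned to 5000 UMIs outside the Defa genes, a Gip UMI was in 95.2% and 96.8% of members, with a median of 3 and 3 UMIs, and in 67.9% and 74.96% of the cells under 20%, with a median of 1 and 1. Such shares are read as UMIs in droplets and not as expression by each cell. The 7 tuft cell markers summed to 0.00985% and 0.00965% against 0.00526% and 0.00600%. The 9 immune markers reached 0.0497% and 0.0485% against 0.0831% and 0.0769%, with Cd74 the most abundant and Cd3e at 0. Of the stromal and blood list, Col1a1 and Col3a1 were at 0, and the list summed to 59 and 261 UMIs over all members. Vim had 53 and 70 UMIs, while the haemoglobin gene Hbb-bs had 1 and 145 and Hba-a1 had 0 and 38, so haemoglobin UMIs were nearly all from replicate 2. Genes of stress during dissociation summed to 0.0421% and 0.0416% against 0.0493% and 0.0487%. The sex genes, with Xist the most abundant, summed to 0.0162% and 0.0187%, and 5 genes of gut region (Fabp6 the most abundant) to 0.0862% and 0.0769%. Cells resembling simulated doublets were 78 and 74 of the members (3.86% and 3.79%).

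Cells just inside the limit were higher in Lyz1, Mptx2 and Ang4 than cells just outside it, and both were shallower than the typical member. From 28% to 30% Defa% there were 36 and 21 cells, and from 30% to 32% there were 37 and 23. Their median totals were 15306.5 and 16197 UMIs outside and 19498 and 19951 inside. Shares of genes were taken of the UMIs outside the alpha-defensins, summed over the cells of each group, so deeper cells weigh more. That of Lyz1 was 5.27% and 4.63% outside the limit and 6.78% and 5.03% inside. Spink4 had 15.5% and 15.2% outside and 13.2% and 14.8% inside. Ang4 had 0.611% and 0.359% outside and 0.969% and 0.684% inside.

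Members differed less from each other than the remaining fl/fl cells did. The coefficient of variation beyond Poisson (CV) is the spread of a gene between cells, relative to its mean, after the part due to counting is removed. With each cell thinned to 5000 UMIs outside the Defa genes, its median over 489 genes outside the alpha-defensins was 0.175 and 0.198 in members and 0.356 and 0.351 in cells under 20%. A gene's CV was lower in members for 443 and 415 of the 489. In members the variance exceeded 2 times the mean for 26 and 26 genes, and in the cells under 20% for 140 and 138. Since other alpha-defensins still took UMIs in members at that depth, cells were also thinned to 3000 UMIs outside all alpha-defensins, which left out 9 and 3 members. The medians were then 0.128 and 0.138 against 0.353 and 0.358, with 453 and 446 genes lower in members. The cells under 20% hold several cell types, so their spread includes the differences between those.

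**Figure D4:**
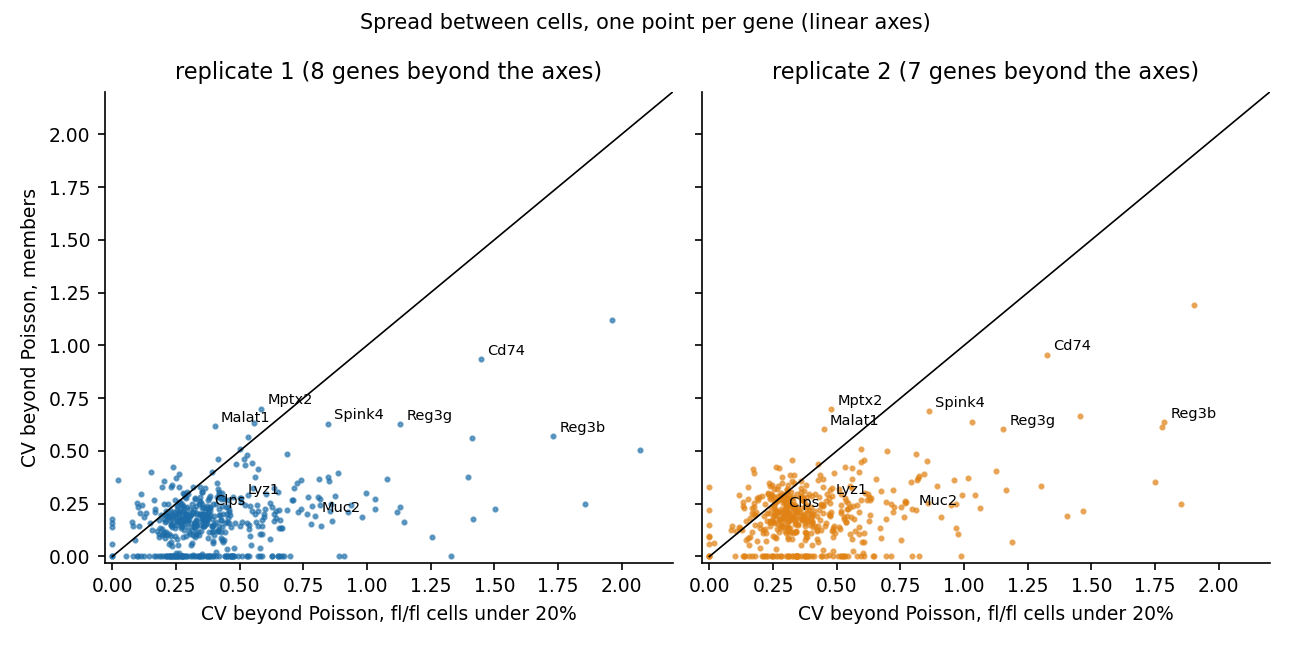
CV beyond Poisson (both axes linear) of the 489 genes outside the alpha-defensins, in fl/fl cells under 20% (x axis) and in members (y axis) of the same library, 1 point per gene, with the line of equality. Most points lie under the line (443 and 415 of 489 genes), with Mptx2 and Malat1 above it.

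Among the granule genes, Lyz1 varied less between members than Mptx2, though both lay above the median CV of 0.175 and 0.198 over the 489 genes. Lyz1 had a CV of 0.277 and 0.278, with a median of 299.5 and 285 UMIs per thinned member and the central 90% of cells between 167 and 446 and between 157.45 and 417.55. Mptx2 had a CV of 0.700 and 0.699, with medians of 47 and 43 and the central 90% between 15 and 140 and between 13 and 125.55, so that a member high in Mptx2 held several times the UMIs of a low one. Ang4 lay between (0.365 and 0.368), as did Mmp7 (0.303 and 0.361) and Itln1 (0.305 and 0.299), and Clps was lower (0.226 and 0.216). Spink4 had a CV of 0.630 and 0.690 with a tail of high cells, the highest at 1413 and 1446 UMIs beside medians of 173 and 156. At a limit of 40% Defa% its CV was 0.272 and 0.351, and over all members its rho with Defa% was -0.26 and -0.35. Reg3g had a CV of 0.628 and 0.604, and Malat1, a nuclear noncoding RNA, 0.619 and 0.605.

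Across members, Spearman's rho between Lyz1 and Ang4 was 0.33 and 0.36, that between Mptx2 and Ang4 was 0.32 and 0.33 and that between Lyz1 and Mptx2 was 0.16 and 0.21 (n = 2020 and 1950 cells). Lyz1 and Mmp7 had a rho of -0.06 and -0.10, and Spink4 and Lyz1 had -0.35 and -0.32. These values come from shares of the UMIs outside the alpha-defensins in cells of the same library, where a high share of one gene lowers those of others. The cells were not thinned for them, so their depths differed. Ang4 also went with the cell's total UMIs (rho of 0.48 and 0.49), as did Mptx2 (0.32 and 0.35) and Lyz1 (0.22 and 0.30). The part of depth in the values between genes was not tested.

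A few hormone and absorptive genes had a high CV together with very few high cells. Gip had a median of 3 and 3 UMIs per thinned member and a highest value of 144 and 481, with 2 and 3 cells at 30 UMIs or more holding 3.07% and 12.7% of its UMIs. Cck had 2 and 2 cells at 10 or more. Fabp1, the enterocyte fatty acid binding protein, had 2 and 3 cells at 20 or more, and all of these resembled simulated doublets. None of the high Gip and Cck cells did. Rnase1, a secreted ribonuclease, was different in that its CV of 1.12 and 1.19 was spread over many cells, as described next.

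Members also differed in which alpha-defensin genes they used. Gm15308 (now Defa32) took a median of 1.62% and 1.87% of a member's alpha-defensin UMIs, and its histogram had a main peak between 1% and 1.5% and a second, lower one between 5% and 5.5% in replicate 1 and between 5.5% and 6.5% in replicate 2.

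Members were then ordered by this share and the 25% with the lowest and the 25% with the highest share were set side by side, so Gm15308 itself and the alpha-defensins that share reads with it are described and not tested. Each of these 2 groups held 505 and 488 cells, the low group at or under 1.12% and 1.21% and the high group at or over 4.02% and 5.09%. Defa20 went with it, from 2.37% to 8.71% of alpha-defensin UMIs in replicate 1 and from 2.73% to 10.8% in replicate 2. Defa21 went from 2.79% to 9.11% and from 2.88% to 9.30%, and Defa22 from 2.73% to 8.83% and from 2.80% to 9.15%. Gm21002 went from 1.58% to 5.02% and from 0.745% to 2.18%. Each of these genes thus took several times the share in the high group that it took in the low one. In the opposite direction, Defa24 went from 38.5% to 28.7% and from 38.4% to 28.1%. Gm15284 went from 17.5% to 12.4% and from 18.0% to 12.7%, Gm14851 from 10.2% to 5.71% and from 9.71% to 5.44%, and AY761184 from 10.7% to 5.18% and from 10.4% to 5.02%. The shares sum to 100% within a cell, so a higher share of some genes lowers the others. In all, 9 alpha-defensins had a mean rho with Gm15308 above 0.6 (itself included), and 8 had one below -0.4.

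Genes of both kinds are shown by their promoters, the 150 bases before the start of transcription in RefSeq (GRCm38.p6), so that copies that went together can be compared with copies that went the other way. The capitals mark ATCAAAG, the core that TCF/LEF factors of the Wnt pathway bind, and TATAAA, the TATA box. The first 3 belong to genes that were higher in the high group and the last 2 to genes that were lower there.
Defa32 (counted as Gm15308, chr8:21528880-21529029, plus strand): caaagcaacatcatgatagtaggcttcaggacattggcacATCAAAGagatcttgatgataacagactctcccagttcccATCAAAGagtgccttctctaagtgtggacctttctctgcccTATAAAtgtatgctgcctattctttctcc
Defa20 (chr8:21509108-21509257, plus strand): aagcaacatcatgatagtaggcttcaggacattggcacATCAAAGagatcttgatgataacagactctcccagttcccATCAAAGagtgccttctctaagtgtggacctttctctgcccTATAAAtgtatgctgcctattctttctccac
Defa21 (chr8:21025395-21025544, plus strand): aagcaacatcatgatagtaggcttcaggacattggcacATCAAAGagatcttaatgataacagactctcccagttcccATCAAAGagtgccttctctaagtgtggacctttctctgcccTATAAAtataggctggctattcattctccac
Defa30 (counted as Gm15284, chr8:21134500-21134649, plus strand): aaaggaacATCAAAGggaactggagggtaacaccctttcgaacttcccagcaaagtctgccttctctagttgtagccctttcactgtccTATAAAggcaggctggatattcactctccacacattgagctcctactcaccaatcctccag
Defa38 (counted as Gm14851, chr8:21096051-21096200, minus strand): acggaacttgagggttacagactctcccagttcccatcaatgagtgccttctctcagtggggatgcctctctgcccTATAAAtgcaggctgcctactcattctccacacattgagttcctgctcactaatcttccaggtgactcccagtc
The annotated starts lie at different distances from the TATA box, 29 to 31 bases after its first base in the first 3 genes but 61 in Defa30 and 74 in Defa38, so identity was taken only over the stretch that both windows (250 bases before to 50 after the start) cover. There Defa20 was 100% identical to Defa32 and 97.7% to Defa21, and 79.0% identical to Defa30 and 80.5% to Defa38. The likeness did not follow the sets in every case: Defa30 and Defa38 were 76.8% identical to each other, less than Defa38 and Defa20, while Defa23, which was lower in the high group, was 90.4% identical to Defa30 and 83.0% to Defa21. The windows of the first 3 genes held 2 matches to ATCAAAG or its reverse complement CTTTGAT, that of Defa30 held 1 and that of Defa38 held 0. Of all 32851 RefSeq windows of this length, 1225 (3.73%) held a match and 33 (0.100%) held 2 or more. Of the 16 windows of alpha-defensin genes, 13 held a match and 9 held 2, among them Defa23, so the count alone does not separate the sets. Every gene with a mean rho above 0.6 and a window held 2. Of the 8 below -0.4, only Defa23, Defa30 and Defa38 had a window, and Defa24 and AY761184 were among those without. TATAAA was in 15 of the 16, against 8.32% of all windows. A match is only these letters in the window and not a measured site. The last 150 bases of the transcripts were also more alike within the set of 9 that went with Gm15308 (median identity of 81.8% over pairs) than within the set of 8 that went against it (52.7%) or between them (69.9%), and the exchange of reads between copies was not tested.

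Genes outside the alpha-defensins moved with this order too. Reg3g went from 0.593% to 1.48% of the UMIs outside the alpha-defensins from the low to the high group of replicate 1 and from 0.594% to 1.47% in replicate 2 (rho over all members of 0.66 and 0.68). Nupr1 went from 0.174% to 0.287% and from 0.173% to 0.289% (rho of 0.44 and 0.45), and Guca2a from 0.639% to 0.802% and from 0.693% to 0.845% (0.47 and 0.43). Rnase1 had the lowest ratio of these genes, from 0.130% to 0.0302% and from 0.118% to 0.0268% (-0.68 and -0.68). Clps went from 1.74% to 1.06% and from 1.75% to 1.12% (-0.71 and -0.66), Reg4 from 0.422% to 0.232% and from 0.404% to 0.227% (-0.52 and -0.50), and Guca2b from 0.425% to 0.324% and from 0.426% to 0.330% (-0.40 and -0.37). Members low in Gm15308 were thus high in the lipase cofactor and the ribonuclease, and members high in it were high in Reg3g. Most genes did not follow: of 462 genes outside the alpha-defensins with a mean of at least 3 UMIs, 380 (82.3%) had a rho within 0.1 of 0 in both libraries, 4 were above 0.3 and 4 below -0.3. Fth1, which was chosen after its values were seen, is the fourth of those above 0.3 (0.34 and 0.37).

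**Figure D5:**
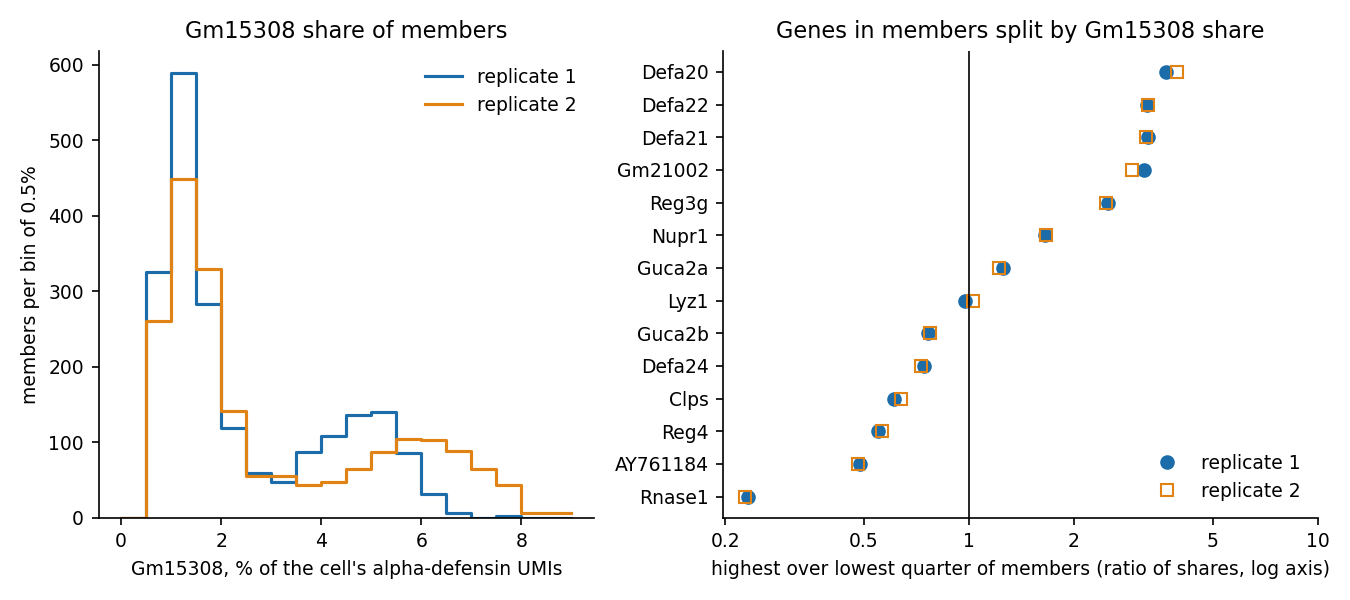
Left, members per bin of 0.5% (y axis) by the share of Gm15308 in the cell's alpha-defensin UMIs (x axis, percent) for both fl/fl libraries. Right, ratio (x axis, log scale) of a gene's share in the 25% of members highest in Gm15308 to that in the 25% lowest, as a share of alpha-defensin UMIs for alpha-defensins and of the UMIs outside them for other genes, with filled circles for replicate 1 and open squares for replicate 2. Defa20 to Gm21002 and Reg3g lie right of 1, Lyz1 near 1 and Rnase1 farthest left.

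The order went with depth and with the measure that chose the cells. Median UMIs were 37448 and 42513.5 in the low group and 53293 and 60549.5 in the high group, and median Defa% was 39.5% and 41.5% in the low group and 43.0% and 46.1% in the high group. The alpha-defensin share as a whole was not higher in the high group, with medians of 71.1% and 73.0% in the low group and 69.1% and 71.5% in the high group. Within the 25% of members with the most UMIs, rho between Gm15308 and Reg3g was 0.75 and 0.72, and within the 25% with the fewest it was 0.41 and 0.46. Both libraries held cells with Xist UMIs and cells with UMIs of Y-linked genes. Where a member had 3 or more Xist UMIs and none from the Y chromosome (385 and 455 members) the rho was 0.64 and 0.63, and where it had a UMI from the Y chromosome and none of Xist (136 and 104 members) it was 0.71 and 0.78. With the alpha-defensin UMIs of each cell thinned to 500, the central 90% of members lay between 0.6% and 6.0% and between 0.6% and 7.4% Gm15308, and the cells under 20% lay between 1.4% and 4.0% and between 1.4% and 4.2%. No cell was left out by this thinning.

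Clustering the members without alpha-defensin genes gave 4 clusters, each present in both libraries. Cluster 1 (1085 and 1276 cells) was led by Reg3g and Nupr1, and cluster 2 (730 and 455) by Pnliprp2, Rnase1, Tmed6 and Mptx2. Cluster 3 (151 and 186) was led by Rnase1, Retnlb (named here after its values were seen) and Spink4, and cluster 4 (54 and 33) by Malat1 and mitochondrial genes. The first principal component (Mptx2, Ang4 and Lyz1 against ribosomal protein genes) held 1.10% of the variance. Its rho with the Gm15308 share, taken without its sign, was 0.12 and 0.11. The second, with Rnase1, Reg4 and Spink4 against Reg3g and Nupr1, held 0.773%, and its rho without the sign was 0.62 and 0.60. Taken singly, Rnase1, Reg4 and Spink4 fell with the Gm15308 share, and Reg3g and Nupr1 rose with it.

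The same limit of 30% Defa% was applied to the libraries labelled Slc7a5 IEC-KO to see which genes of such cells differ by genotype. It was met by 2019 of 10004 and 2336 of 9644 cells. These libraries did not have the gap of the fl/fl libraries, with 1305 and 1218 cells (13.0% and 12.6%) from 20% to 30%, so the limit cuts through a continuous run of values there. The median totals of the cells over the limit, 13782 and 20159 UMIs, and their alpha-defensin shares, 55.0% and 55.3% of summed UMIs, were lower than in the fl/fl members. UMIs were summed per library without the Defa genes and tested with edgeR's quasi-likelihood test over 12498 genes. In the cells labelled Slc7a5 IEC-KO, 2490 of these (19.9%) had higher and 2445 (19.6%) had lower values at a Benjamini-Hochberg adjusted p under 0.05, that is 39.5% of all genes, against which any count below has to be read. Slc7a5 itself had 91 and 84 UMIs in fl/fl members and 128 and 252 in the Defa-rich cells labelled Slc7a5 IEC-KO, a log2 fold change of 1.71 (SE 0.14, edgeR adjusted p = 3.00e-08). The reads of a 3′ kit lie outside the deleted exon 1, so these UMIs do not check the label.

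Of the 16 alpha-defensins not named Defa, 13 were lower and 2 higher (median log2 fold change of -0.93, against -0.001 over all genes). Of these calls, those of Gm15315, Gm15299, Gm15284 and Gm21498 were lost without fl/fl replicate 1 and those of Gm15308 and Gm15284 without fl/fl replicate 2. At a limit of 40% Defa%, Gm15308, Gm14850, Gm15315, Gm15284 and Gm21498 lost theirs. With library size scaling Gm14850, Gm15315, Gm15284 and Gm21498 did, with DESeq2 Gm15293 and Gm21498, and with a replicate block Gm15284. Gm15299 lost its call at 25% and with cells thinned to 2000 UMIs, and Gm21498 without either library labelled Slc7a5 IEC-KO. Of the Paneth markers, Lyz1, Mptx2 and Ang4 were lower and Mmp7 was higher. Lyz1 had 71687 and 70026 CPM (TMM-scaled, outside the Defa genes) in fl/fl members and 25233 and 18721 in the Defa-rich cells labelled Slc7a5 IEC-KO. Mptx2 had 14481 and 13457 against 5135 and 3870, and Ang4 had 12869 and 12999.8 against 4884 and 3667. For these 3 genes the libraries of the genotypes did not overlap, which in this direction held for 35% of all 12498 genes. The log2 fold change of Lyz1 was -1.69 (SE 0.17, edgeR adjusted p = 2.62e-07), that of Mptx2 -1.63 (SE 0.14) and that of Ang4 -1.60 (SE 0.14). Mmp7 had 3031 and 2907 CPM against 4202 and 3605, a log2 fold change of 0.39 (SE 0.11, edgeR adjusted p = 0.00645), a call that was lost without either fl/fl library. Of the granule list, 11 of 24 genes were lower and 6 higher, with Clps at -1.37 and Guca2b at -1.32 among the lower and Reg4 at 1.98 (SE 0.12) among the higher. Itln1 (-0.10, edgeR adjusted p = 0.644), Spink4 (-0.13, 0.534) and Reg3g (0.09, 0.577) did not pass the test.

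Alpha-defensins of both sets were lower by genotype. Of those that went with Gm15308, Gm15308 itself had a log2 fold change of -0.84, a call lost without fl/fl replicate 2 (-0.62) and at a limit of 40% Defa% (-0.17), and Gm21002 one of -1.80, which was -1.21 without fl/fl replicate 1. Of those that went against it, AY761184 had -2.10 and Gm14851 -2.23, while Gm15284, the most abundant of those tested, had -0.61, a call lost without either fl/fl library and at a limit of 40% Defa%. Nupr1 was higher (0.87), as was Rnase1 (0.43).

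Among the other lists, 81 of 82 ribosomal protein genes were higher (median of 0.83), as were 7 of 12 secretory lineage factors, with 2 lower. All 14 enterocyte markers and 14 of 15 cell cycle genes were lower (medians of -1.33 and -0.75). Of the endoplasmic reticulum genes 9 were higher and 8 lower of 40, of the niche ligands 1 and 3 of 6, of the zinc genes 2 and 1 of 8 and of the tuft markers 0 and 6 of 7. Of the remaining lists, 4 and 4 of 13 goblet markers were higher and lower, 2 and 4 of 10 stem cell markers, 3 and 4 of 10 enteroendocrine markers, 0 and 1 of 5 immune markers, 1 and 0 of 2 stromal or blood genes, 7 and 2 of 14 dissociation genes and 1 and 2 of 5 genes of gut region. Of the sex genes 1 was higher and 4 were lower (median of -1.48). The paper describes the mice of both genotypes as littermates matched for sex and age. The mix of the sexes in each library was not tested, nor was the part of sex, of depth and of other cells' markers in the calls. Mt1 was higher by 2.19. Scaling by library size alone shifted the median of all genes by 0.487 and so turned the median of the granule list from -0.20 to 0.29, that of the endoplasmic reticulum genes from -0.01 to 0.48 and that of the niche ligands from -0.39 to 0.10. It also turned those of the goblet markers (-0.13 to 0.36), the immune markers (-0.17 to 0.32), the genes of gut region (-0.47 to 0.02), the zinc genes (-0.04 to 0.45) and the enteroendocrine markers (-0.02 to 0.47).

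Rises and falls were ranked by log2 fold change among genes that passed the test, whose libraries did not overlap and that had at least 30 UMIs in each library of the higher genotype. Among the largest rises, Try5, a trypsin, had 3 and 2 UMIs in fl/fl members and 1792 and 2662 in the Defa-rich cells labelled Slc7a5 IEC-KO. Col26a1, a collagen, Ndnf, a secreted neuronal factor, and Csgalnact1, an enzyme of chondroitin sulphate synthesis, had no UMI in fl/fl members. Against a floor of 3 UMIs over both fl/fl libraries, and with TMM-scaled library sizes, Col26a1 was at least 67.9-fold higher, Ndnf at least 60.3-fold and Csgalnact1 at least 45.6-fold. The fifth was Tmem114, a membrane protein. The largest falls were Dkk3, a secreted protein of the Dickkopf family, the alpha-defensin Gm15292, Apoc4, an apolipoprotein, Ntf5, a neurotrophin, and Bhmt2, a methyltransferase of methionine metabolism. Dkk3 went from 42 and 54 UMIs to 1 and 3. Bhmt2 went from 62 and 68 UMIs to 0 and 11 and was not called by DESeq2 (adjusted p = 0.154).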

How the data were processed

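The authors deposited raw UMI counts, a matrix of 27998 genes by called cell barcodes for each of 4 libraries. The submitters' processing notes name Cell Ranger 2.1.1 and mm10. Counts were used as deposited and no cell was filtered out. The fl/fl libraries held 113529509 and 119339206 UMIs. The members and the gene lists were chosen with earlier results of these data known.

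Defa% was the summed UMIs of genes with symbols starting with Defa over the total UMIs of the cell. Further alpha-defensins were found by their current names, and Gm26778, a noncoding RNA, was left out. Shares are of UMIs summed over cells of a library. For the spread, cells were thinned without replacement to 5000 UMIs outside the Defa genes (none left out). Clusters were Leiden clusters (2000 variable genes, 30 components, 20 neighbours, resolution 0.5, seed 0). Doublets were kept, and those most like simulated ones by their 30 neighbours were marked, at 0.8% per 1000 cells of the library. Members against the other fl/fl cells got no test.

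For the genotype, UMIs were summed per library over cells of 30% or more and tested with edgeR 4.0.16 (quasi-likelihood test, TMM, filterByExpr, Benjamini-Hochberg at 0.05), with no replicate block. SE is the log2 fold change over the root of F. The standard error and p-values rest on 2 libraries per genotype and cover the spread between these only. DESeq2 1.42.0 was an alternative. The test was checked on simulated data.

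Genes named are the 15 of the largest share, the 20 largest outside the Defa genes, the 15 highest and 10 lowest ratios, the 15 of highest CV, the 5 largest rises and falls by genotype, members of the lists and Slc7a5. Some of these genes are not reported here. Positions are of GENCODE M21, and promoters of RefSeq (GRCm38.p6), where 16 alpha-defensins had an entry.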

Additional observations from a re-analysis of the deposited data

How the results depend on the processing

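The members' share of cells, 58.1% as a mean of the fl/fl libraries, was 44.1% at a limit of 40% Defa% and 64.3% over cells of at least 10000 UMIs. The share of Defa24 was 22.7% at 40%, beside 23.0%. The median CV, 0.187 as a mean of both libraries, was 0.124 at 40% and, in an alternative chosen after seeing the data, 0.133 with 3000 UMIs outside all alpha-defensins. The mean rho of Reg3g with Gm15308, 0.667, was 0.590 with cells thinned to 3000 UMIs and 0.731 at 40%, and that of Rnase1, -0.680, was -0.463 and -0.669. The cause of these changes was not tested, other than that a thinned cell has fewer counts.

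The genotype test called 2490 genes higher and 2445 lower. With library size scaling it called 7710 and 633, with DESeq2 1633 and 1476, at a limit of 40% 1419 and 1247, and with cells thinned to 2000 UMIs 960 and 937. Library size scaling turned Bhlha15 to 0.10 (from -0.39) and Tff3 to 0.035 (from -0.45). Leaving out 1 library gave 1980 to 2318 higher and 1976 to 2226 lower, where a lone library is assumed to vary like the other group. With the replicate number as a block the counts were 2549 and 2539. The numbers share no pairing that the labels state, and deviations of same-numbered libraries had a correlation of -0.019 over 4827 genes. Among the 56 genes followed under the alternatives, the calls of Mmp7, Tff3, Gm15284, Hspa5, Gm15315, Gm15299 and Gm21498 were lost without fl/fl replicate 1, and those of Mmp7, Tff3, Gm15284, Hspa5, Gm15308 and Wfdc2 without fl/fl replicate 2. Egf, Wfdc2 and Gm21498 lost theirs without replicate 1 labelled Slc7a5 IEC-KO and Gm21498 without replicate 2. Gm15284 and Hspa5 lost theirs with the block, and Bhmt2, Gm15293, Egf, Wfdc2 and Gm21498 with DESeq2. At a limit of 40% those of Gm15308, Gm14850, Gm15315, Gm15284, Egf, Wfdc2, Gm21498 and Hspa5 were lost, and at 25% that of Gm15299. With library size scaling Dll1, Gm14850, Gm15315, Gm15284, Egf, Wfdc2 and Gm21498 lost theirs, and with cells thinned to 2000 UMIs Ero1lb, Dll1, Wnt3, Gm15299 and Hspa5. Hspa5 also lost its call without the low-count filter and with 10 UMIs in every library. With 2 libraries per genotype, no outlier among libraries can be found, and intervals for single cells are not given because cells are not replicates.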

Other observations

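The 209 fl/fl cells from 20% to 30% Defa% had fewer UMIs than the members, with medians of 13778 and 13273. Their alpha-defensin share was 40.6% and 38.2% of summed UMIs. Outside the alpha-defensins, Lyz1 took 4.52% and 3.49%, between the members and the cells under 20%, while the 13 goblet markers took 23.8% and 24.6%, above both. Cells resembling simulated doublets were 17.5% and 8.99% of them, against 3.86% and 3.79% of members and 0.469% and 0.0849% of the cells under 20%. The part of doublets in these values was not tested.

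At a resolution of 1, chosen after seeing the data, the members formed 8 clusters. Their shares were less alike between the libraries than at 0.5, with a cluster led by Rnase1 and Pnliprp2 of 558 and 126 cells and one led by Mptx2 of 164 and 430. A second cluster led by Mptx2 went the other way, with 246 and 71 cells. A cluster of 114 and 103 members was led by Hmgb2, a chromatin protein of cycling cells, which was named here after its values were seen as a leading gene.

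Slc7a5 UMIs were found in 4.41% and 4.21% of fl/fl members, and its share outside the alpha-defensins was 1.03 and 0.863 times that in the cells under 20%. Its partner in the transporter, Slc3a2, was at 1.05 and 1.16 times.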
